A study of Arabidopsis thaliana with 21 samples.

Results

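The transcripts crosslinked to AtGRP7-GFP at LL36 were described with GFP-only plants as the background, using 10 of the 21 iCLIP libraries of the series. The libraries were chosen by their labels alone, 5 of AtGRP7-GFP and 5 of GFP-only, which the study calls biological replicates. AtGRP7-GFP plants carried AtGRP7::AtGRP7-GFP, introduced into grp7-1, a mutant that has lost AtGRP7 function, and GFP-only plants carried AtGRP7::GFP in Col-0, so that the groups differ in background as well as in the protein. Both transgenes were driven by the AtGRP7 promoter. All plants were 18 days old, had been transferred from light-dark cycles to continuous light for 36 h, and were irradiated with UV light on plates before their aerial tissue was lysed and precipitated with GFP Trap beads.

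AtGRP7 is a small glycine-rich protein of Arabidopsis thaliana with an RNA recognition motif, the commonest RNA-binding fold of eukaryotes. Its transcript is under control of the circadian clock and peaks towards the evening, and the protein acts on splicing and stability of its targets, among them its own pre-mRNA and that of its paralog AtGRP8. In iCLIP, UV light joins protein and RNA covalently, and reverse transcription stops next to the peptide that is left on the RNA, so that each read start marks a crosslink (XL).

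The deposited lists give, for each library, the positions that passed the authors' false discovery rate of 0.05, with the number of unique reads behind each. For every transcript these crosslinks and the positions were summed, intronic ones included. To compare libraries, sums were divided by the uniquely mapped reads in the study's read statistics and are given as crosslinks per 1000000 uniquely mapped reads, abbreviated CPM and called the level below. A position that did not pass is not in the lists, hence "not listed" is not a count of 0. The RNA level of each transcript was not measured in these libraries, so stronger binding and more abundant RNA cannot be told apart in a level.

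The sequence at the most crosslinked position is shown first for a few transcripts on which the results turn, as DNA letters 5′ to 3′ with the crosslinked base in capitals and 10 nt on either side. Coordinates are those of TAIR10 as in the lists, counted from 1, and the bases were read from TAIR10.1. RBCS1A, RBCS3B and RBCS2B encode the small subunit of rubisco, CAB1 and LHCA3 light-harvesting proteins, and PSBR a photosystem II subunit. AT1G64130 and DTX35 lead the lists of GFP-only plants.
RBCS1A, coding exon, chr1:25048489-25048509, minus strand: tgcatcagttTcattgcctac
RBCS3B, coding exon, chr5:15377528-15377548, minus strand: tgcatcagttTcattgcctac
RBCS2B, coding exon, chr5:15381230-15381250, minus strand: tgcatcagttTcattgcctac
CAB1, 3′ UTR, chr1:10478901-10478921, plus strand: agtctttgctTcgtgagtgtg
PSBR, 3′ UTR, chr1:29736818-29736838, plus strand: tataaatgttTctgtgttgtt
LHCA3, 3′ UTR, chr1:22701252-22701272, plus strand: attcgtgtttTgtaagaaatg
AtGRP7, 3′ UTR, chr2:9265326-9265346, minus strand: tattttggtaTctggaaacgt
AtGRP8, coding exon, chr4:18274870-18274890, minus strand: aaggacgttcTcacagttcgg
AT1G64130, in a tRNA-Leu gene, chr1:23802581-23802601, plus strand: cagactcaagTtctggtcttc
DTX35, in a tRNA-Leu gene, chr4:13076609-13076629, minus strand: cagactcaagTtctggtcttc
The 3 rubisco genes share the same 21 bases, as do both tRNA genes, so that a read had to reach beyond this window to be placed uniquely. The crosslinked base was T in each of these windows.

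The AtGRP7 transcript itself was listed in every AtGRP7-GFP library, with 3413, 4375, 1272, 1752 and 2368 crosslinks in libraries 1 to 5. In GFP-only plants it was listed with 15 crosslinks in library 2 and 6 in library 4, and not in the other 3. At a mean of 1783 ± 307 CPM (SD, n = 5) it ranked at place 10 of all transcripts. Reads of the transgene and of the endogenous gene cannot be told apart here. AtGRP8 was listed with 305, 350, 45, 76 and 223 crosslinks in AtGRP7-GFP plants, 124 ± 54.4 CPM (n = 5), and in no GFP-only library. The lowest AtGRP8 values were those of libraries 3 and 4, which are also the libraries with the fewest crosslinks.

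The lists of AtGRP7-GFP plants held far more transcripts than those of GFP-only plants. The numbers of transcripts were 2710, 3123, 1347, 1553 and 1928 in AtGRP7-GFP libraries 1 to 5, and 18, 98, 43, 26 and 8 in GFP-only libraries 1 to 5. The groups did not overlap, and the difference of 6.13 on a log2(transcripts + 1) scale had the smallest p that 5 against 5 libraries allow (p = 0.00794, two-sided exact permutation test, adjusted p = 0.00952 over 6 measures per library). The crosslinks behind these transcripts were 340381, 402170, 109755, 122202 and 208026 in AtGRP7-GFP, and 85, 558, 263, 277 and 33 in GFP-only libraries.
Uniquely mapped reads also differ widely between the groups, with 852764 to 2148240 in AtGRP7-GFP and 4023 to 18848 in GFP-only libraries. Their part in the transcript numbers was not tested. Per 1000 uniquely mapped reads, AtGRP7-GFP libraries held between 112 and 187 listed crosslinks and GFP-only libraries between 5.63 and 32.4. These ranges did not overlap either (difference of 3.14 on the log2 scale, exact permutation adjusted p = 0.00952). The number of transcripts per 1000 uniquely mapped reads was 1.35 to 1.82 in AtGRP7-GFP and 1.36 to 5.68 in GFP-only libraries, a difference of -0.98 on the log2 scale that did not pass the test (exact permutation adjusted p = 0.135). Since the number of different transcripts need not grow in proportion to reads, this ratio can favour shallow libraries and does not show what part depth has. GFP-only libraries listed fewer crosslinks on each transcript, with a mean of 4.13 to 10.7 crosslinks per transcript in comparison to 78.7 to 129 in AtGRP7-GFP libraries. This difference was 4.11 on the log2 scale (exact permutation adjusted p = 0.00952).

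**Figure D1:**
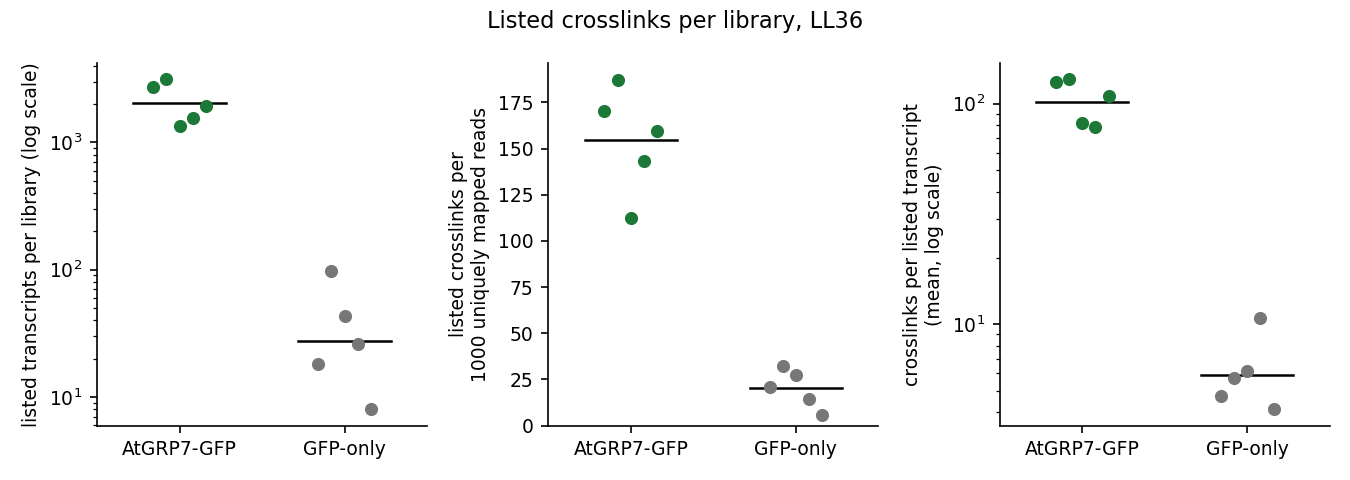
Listed transcripts (left, log scale), listed crosslinks per 1000 uniquely mapped reads (middle) and mean crosslinks per listed transcript (right, log scale) in the 5 AtGRP7-GFP (green) and 5 GFP-only (grey) libraries. Points are libraries, lines are means (geometric on the log scales), and the groups are apart in each panel, with 1347 to 3123 against 8 to 98 transcripts and 112 to 187 against 5.63 to 32.4 crosslinks per 1000 reads.

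Altogether 4435 transcripts were listed in at least 1 AtGRP7-GFP library, and 743 of these (16.8%) in all 5. Another 473 were listed in 4 libraries, and 1901 (42.9%) in only 1. The 743 transcripts held most of the crosslinks, 91.0% ± 3.77 (SD, n = 5) of each library's total, from 86.4% in library 2 to 95.4% in library 3. Transcripts listed only once were weak, with a median of 6 crosslinks in the library that listed them. Missing transcripts followed the shallower libraries: of the 473 transcripts listed in 4 libraries, 235 lacked library 3 and 176 library 4, but 7 lacked library 1 and 5 lacked library 2.
In GFP-only plants, 174 transcripts were listed, of which 164 (94.3%) appeared in 1 library and 2 in all 5.

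**Figure D2:**
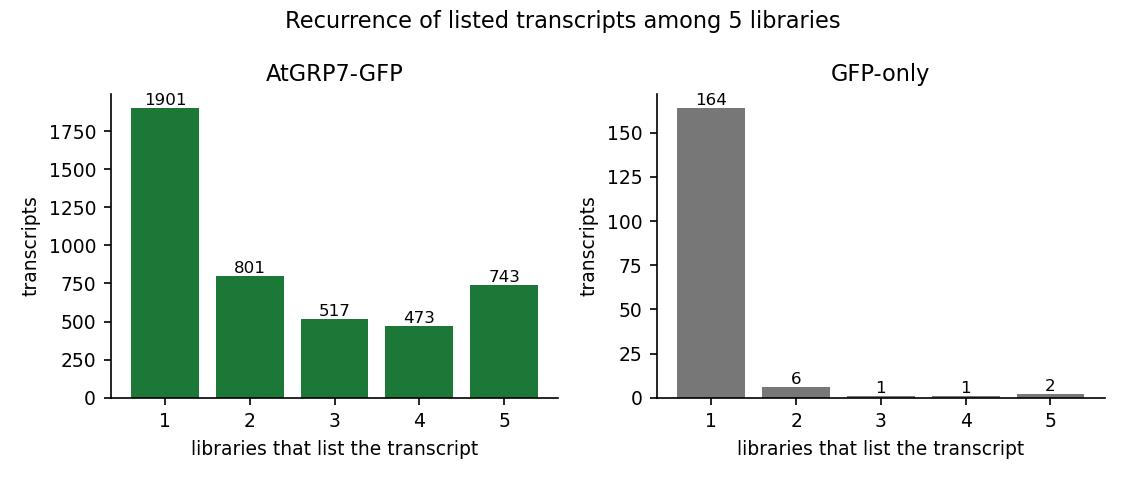
Number of transcripts (y axis, different scales) listed in exactly 1, 2, 3, 4 or 5 libraries (x axis) of AtGRP7-GFP (left) and GFP-only plants (right). In AtGRP7-GFP plants the bar for all 5 libraries, 743 transcripts, exceeds those for 3 and 4 libraries, whereas in GFP-only plants 164 of 174 transcripts stand in the first bar.

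Levels of the 743 transcripts, summed over each transcript without regard to its length, spanned a wide range. The geometric mean over the 5 libraries had a median of 50.4 CPM, with the middle of the transcripts between 23.2 and 127 (quartiles), and the highest level was 216 times the median. The 10 strongest transcripts took 21.5% ± 2.38 (SD, n = 5) of a library's crosslinks and the 100 strongest 62.6% ± 5.23. Between 41 and 73 transcripts sufficed to hold 50% of a library.
RBCS1A stood at the top with 22466, 25377, 9133, 9890 and 13765 crosslinks, or 11231, 11813, 9341, 11598 and 10558 CPM, in libraries 1 to 5. Its lowest library was still above the highest value of any other transcript in the 20 strongest, and its mean was 10908 ± 997 (SD, n = 5). The next transcript, CAB1, ranged from 3219 to 4311 CPM, and RBCS3B from 2981 to 4125, so that these neighbours overlapped. PSBR lay between 2178 and 3018, which reaches into the range of RBCS3B, and LHCA3 between 1819 and 2542.
After GRP-3, a glycine-rich protein (1703 to 2507 CPM), the levels of the remaining 14 transcripts lay close together and their libraries overlapped from neighbour to neighbour. They encode DRT112, which is plastocyanin (1779 to 2067), FED A, a ferredoxin (935 to 1441), the photosystem subunits PSBW, PSAL, PSBX, PSAF and PSAO, and the antenna proteins LHCB5 and LHB1B2. RBCS1B and RBCS2B, GRP3S, THI1, an enzyme of thiazole synthesis for vitamin B1 (1011 to 1784), and AtGRP7 complete the 20. In all 20 transcripts library 3 gave the lowest level. Per kb of spliced transcript, the order at the top was RBCS1A (8573 CPM per kb), PSBR (3453), CAB1 (2986), RBCS3B (2963) and PSBX (2424).

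**Figure D3:**
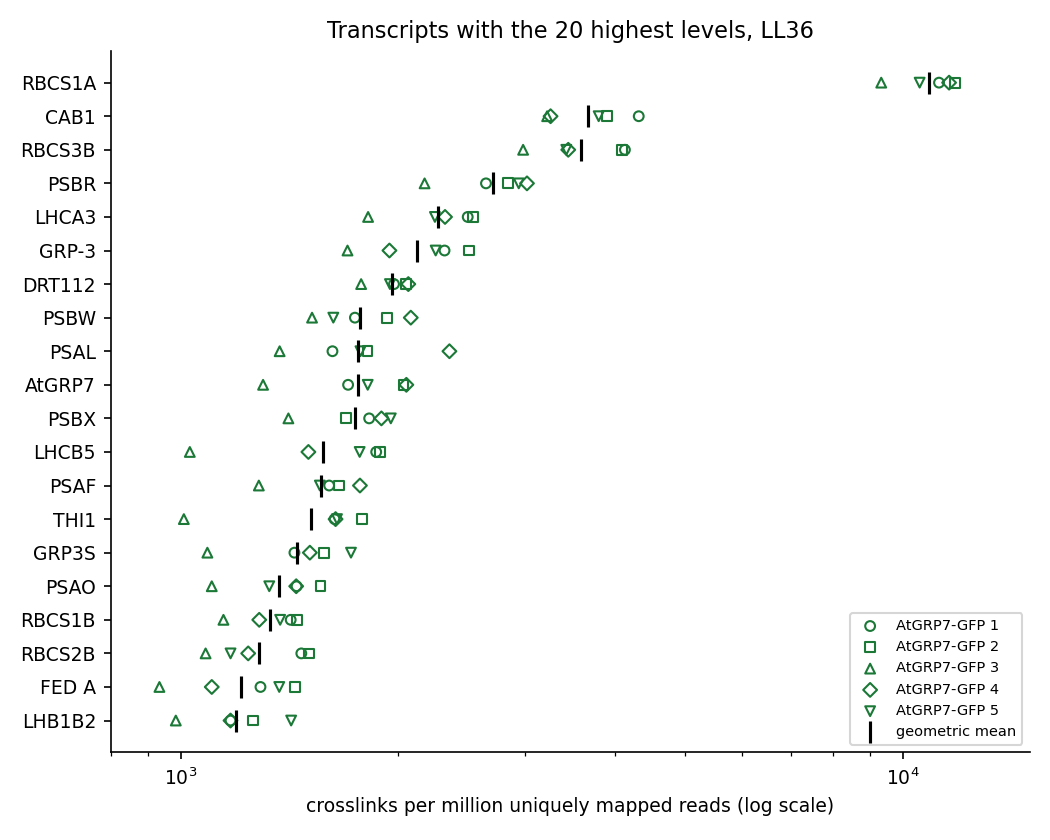
Crosslinks CPM uniquely mapped reads (x axis, log scale) of the 20 strongest transcripts (y axis), with 1 symbol for each AtGRP7-GFP library and a bar for the geometric mean. RBCS1A is apart from all others at 9341 to 11813, neighbouring transcripts overlap from the second place on, and library 3 (upward triangle) is lowest in all 20.

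Length and base composition of the listed transcripts were set beside those of all others. The 737 nuclear coding genes listed in all 5 libraries had a median spliced length of 1242 nt and a U content of 29.7%, in comparison to 1443 nt and 29.2% for the 23032 genes that were not listed. Across the 737 transcripts, level and length had a rank correlation of -0.11, and level and U content of -0.03, given as a description since genes are not independent replicates.

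Transcripts for photosynthesis stood out by number and level. Of 27444 nuclear coding genes, 737 (2.69%) were listed in all 5 libraries, which is the value against which the groups below are read. Rubisco and the Calvin-Benson cycle, which fix CO2, had 10 of 13 annotated members in all 5 libraries, subunits of photosystems I and II 25 of 39, and the light-harvesting antenna 17 of 27. Per kb of spliced transcript, their median levels were 447, 747 and 596 CPM, in comparison to 39.9 over all 737 genes, and without regard to length they filled 8, 20 and 13 of the 100 highest places. Levels given for single genes below are sums over the transcript, not per kb. Together with the strongest members already named, RCA, the rubisco activase, had a level of 905 CPM and PSBO1, of the oxygen-evolving complex, of 1028. The groups made up 13.1% ± 1.31, 14.5% ± 1.58 and 10.8% ± 0.67 (SD, n = 5) of the crosslinks of a library. The Calvin-Benson pattern did not take in every enzyme of the cycle. It left out FBA1, an aldolase listed in all 5 libraries (68.3 CPM), and TIM, a triosephosphate isomerase listed in 4.
Genes of the translation machinery were numerous. Of 378 ribosomal protein genes, 230 were listed in any and 106 in all 5 libraries, but none was among the 100 strongest transcripts, and their median was 61.4 CPM per kb. The highest by this description pattern was LOS1 (246 CPM), which is elongation factor eEF2 and not a ribosomal protein, followed by AT5G02960 (196) and AT2G43030 (158). Of 113 translation factor genes 12 were in all 5, led by AT5G60390 (379), an elongation factor eEF1A gene, and including FBR12 (127), an eIF5A.
Smaller groups with many members in all 5 libraries were the cold-regulated and dehydrin genes (11 of 21), ubiquitins (6 of 14), metallothioneins (3 of 8) and aquaporins (7 of 37). Examples were the dehydrin AT1G54410 (438 CPM), COR413-PM1 (282) and KIN2 (244) among the cold-regulated genes, UBQ10 (353), the metallothionein MT2A (760) and the tonoplast aquaporin gene TIP2 (485). Among antioxidant enzymes, CAT3, a catalase, reached 927 and FSD1, an iron superoxide dismutase, 300 CPM, and MSD1, the manganese superoxide dismutase, 16.2. Of the lipid transfer protein family 6 of 133 members were listed in all 5, with a median of 272 CPM per kb, among them AT2G45180 (910), LP1 (425) and AT2G10940 (388).
Of RNA-binding proteins as a class, 11 of 330 (3.33%) were in all 5, beside 2.69% of all genes. AtGRP7 led this class, followed by the chloroplast proteins CP29 (264 CPM) and CRB (202). Chaperones had 11 of 268 members in all 5, led by HSC70-1 (182), and histones 3 of 52, led by AT3G53730 (45.1).
Regulatory and other large gene families contributed few transcripts. In all 5 libraries there were 3 of 522 genes of the WRKY, MYB, bHLH, NAC and ERF families (ERF15, NAC102 and NAC1), 1 of 875 protein kinases (AT3G01490), 2 of 194 disease resistance genes, 3 of 248 cytochrome P450 genes, and none of 279 pentatricopeptide repeat or 653 F-box genes. The small group of 18 circadian clock genes stood above these families. Of its members, 6 (33.3%) were listed in any and 2 (11.1%) in all 5 libraries, in comparison to 16.1% and 2.69% of all nuclear coding genes. Those in all 5 were PCL1, also named LUX, with 26.1 to 78.8 CPM and ELF4 with 4.6 to 36.8, both members of the evening complex. No plastid or mitochondrial gene was listed. These counts compare listings, which depend on the level of each RNA, and no set test was run.
The labelled aerial tissue was checked with markers. All 7 markers of green tissue were in all 5 AtGRP7-GFP libraries, in comparison to 2.69% of all nuclear coding genes. None of 7 root markers and none of 6 flower and seed markers was listed in any library of either group. Of all nuclear coding genes, 16.1% were listed in any AtGRP7-GFP library. With so few markers, their absence cannot be told apart from this low share and does not test for other tissues.

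**Figure D4:**
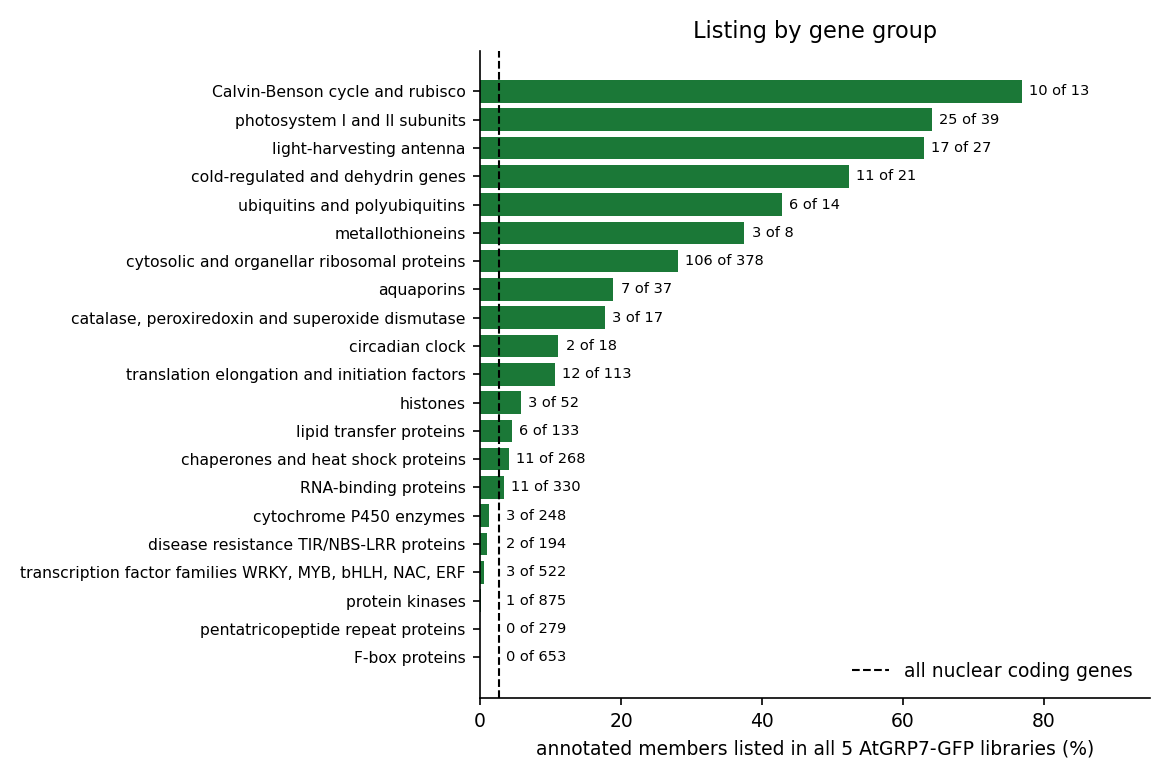
Percentage of the annotated genes of each group that were listed in all 5 AtGRP7-GFP libraries (x axis), with the numbers beside the bars. The dashed line marks all nuclear coding genes at 2.69%, and the photosynthesis groups reach 63.0% to 76.9%, in contrast to F-box and pentatricopeptide repeat genes at 0.

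The libraries ranked the 743 transcripts alike. Spearman's rank correlation between 2 libraries was between 0.80 (libraries 3 and 4) and 0.96 (libraries 1 and 2), with a median of 0.86, over transcripts and as a description. No pair agreed within sampling noise, the closest being libraries 1 and 2, with a chi-square of 6.28 per degree of freedom in comparison to 9.76 to 15.1 for the other pairs. The SD of the log2 level over the 5 libraries had a median of 0.59, and of 0.43 in the stronger 372 transcripts in comparison to 0.82 in the weaker ones. Relative to each transcript's mean, library 3 was the lowest for 404 transcripts and library 2 the highest for 318.
Among the stronger transcripts, the most stable were DRT112, KIN2, PSBP-1, PSBY and CAB3, with SDs of 0.09 to 0.12. KIN2, a cold-induced gene, had 227, 242, 242, 237 and 272 CPM in libraries 1 to 5. The least stable were EMB3105, HCEF1, AAE3, NIT1 and AT4G33865. EMB3105, a ribosomal protein of the L18p/L5e family, had 100, 93.6, 4.09, 118 and 114 CPM, and HCEF1, a chloroplast fructose bisphosphatase, 134, 132, 6.14, 103 and 79.8. In both, library 3 alone stood low. NIT1, a nitrilase, had 149, 241, 16.4, 42.2 and 141 CPM, and thus was low in libraries 3 and 4. Since a list holds only positions past the threshold, a shallow library loses positions as well as counts, and the part of this loss in these values was not tested.

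Crosslinks on most transcripts were spread over many positions. A transcript in all 5 libraries had a median of 32.2 listed positions per library. The strongest position held 7.64% ± 1.42 (SD, n = 5 library medians) of a transcript's crosslinks, and the 21 nt around it 31.9% ± 4.38. In 186 of the 743 transcripts this window held over 50%, and in 161 below 20%. Concentration fell with level, with a rank correlation of -0.48 across transcripts. The window was placed at the strongest position of the same counts, so that few listed crosslinks alone can raise its share. Its median share was 37.5% and 35.3% in libraries 3 and 4, and 27.4% to 30.8% in the others. The part of depth in this relation was not tested. CAT3 and RBCS3B, at 7.45% and 6.34% within the window, were examples of wide coverage, and LHB1B2 and FED A, at 35.9% and 37.7%, of narrower coverage among strong transcripts.
In 63 transcripts over 90% of the crosslinks fell within the window. Their strongest position lay in an intron in 31 of these, in the 3′ UTR in 12, in the 5′ UTR in 11 and in coding exons in 5, and 3 of the 63 lay inside tRNA genes. Among transcription factors ERF15 had 99.8% in the window, and among clock genes PCL1 90.5% and ELF4 73.0%. AT3G01490, the only kinase, had 98.2%. The windows of ERF15, PCL1 and AT3G01490 end in a run of A, and that of ELF4 does not. The strongest base alone held 85.6% of the crosslinks of ERF15, 60.7% of PCL1 and 37.0% of AT3G01490. The part of such runs in these sites was not tested.
The same base was the strongest of its transcript in at least 3 of 5 libraries for 366 transcripts (49.3%), and a base within 10 nt for 517 (69.6%). Of the 743 strongest positions 358 (48.2%) lay in the 3′ UTR, 190 (25.6%) in coding exons, 120 (16.2%) in the 5′ UTR and 62 (8.34%) in introns. The base was U in 92.6%, in comparison to 29.5% U in the spliced transcripts, and the 21 nt windows held 41.7% U. UV light favours uridines in forming crosslinks, and this preference and that of the protein cannot be told apart here.
The pentamer TTTCT was present in 137 of the 743 windows (18.4%), and TTCTG in 51 (6.86%), on the transcript strand only. Of all 1040205 windows of 21 nt in the same spliced transcripts, 4.83% and 2.40% held them. The windows at the strongest positions held more U, and 62 of these positions were intronic. The comparison was not matched for base composition or region. Both pentamers share the letters TTCT and can overlap. AtGRP7's own window, printed above, holds neither pentamer, nor does RBCS1A's, whereas that of PSBR holds both.

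The GFP-only libraries were dominated by few transcripts, and the most prominent lie over tRNA genes. AT1G64130 was listed with 23, 60, 69, 79 and 8 crosslinks in GFP-only libraries 1 to 5, and AT4G03410 with 6, 17, 21, 20 and 4. DTX35, a transporter of the MATE family, was listed with 4, 22, 24 and 30 in libraries 1 to 4 and not in library 5. The only other transcript listed in at least 3 GFP-only libraries was LHCA3, with 14, 6 and 6 crosslinks in libraries 2 to 4.
All GFP-only crosslinks of AT1G64130 and DTX35 fell within genes for tRNA-Leu (chr1:23802553-23802636 on the plus and chr4:13076574-13076657 on the minus strand), those of AT4G03410 within a gene for tRNA-Gln (chr4:1501607-1501678, plus strand), and those of AT3G12587 within a gene for tRNA-Arg (chr3:3995097-3995169, minus strand). In the TAIR10.1 annotation AT1G64130 starts downstream of its tRNA gene, at 23803023, and the assignment of these crosslinks to it is that of the lists. In AtGRP7-GFP plants, too, all listed crosslinks of these 4 transcripts fell within the tRNA genes. Within a tRNA gene, reads of the tRNA and of a coding transcript that covers it cannot be told apart. Crosslinks within tRNA genes made up 45.9%, 18.5%, 43.3%, 46.6% and 36.4% of the listed crosslinks in GFP-only libraries 1 to 5. The counting error of these shares is wide, with a 95% Wilson interval of 22.2% to 53.4% for the shallowest, library 5, where 12 of 33 crosslinks lay within tRNA genes. In AtGRP7-GFP libraries the share was 1.11% to 3.89%, and the groups did not overlap (difference of means -36.2 percentage points, exact permutation adjusted p = 0.0119 over 6 shares).
The tRNA crosslinks were not absent from AtGRP7-GFP plants. AT1G64130 had 2353, 2200, 1769, 548 and 1208 crosslinks there, or 643 to 1809 CPM, which places it at rank 26, and AT4G03410 stood at rank 25.

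Outside the tRNA genes, the GFP-only lists held some photosynthesis transcripts and many single events. The 174 transcripts included 8 of 27 annotated antenna, 6 of 39 photosystem and 3 of 13 Calvin-Benson genes. Of all 27444 nuclear coding genes, 170 were listed in any GFP-only library. RBCS1A was listed with 40 crosslinks in library 2 and 25 in library 4, and CAB1 with 19 in library 2. Of the 174 transcripts, 115 rested on a single position in a single library, and 62 were not listed in any AtGRP7-GFP library. AT4G06536 had 32 crosslinks at 1 position of library 4, and AT4G06602 had 10 in the same library. The sets of both groups overlap in part, with 31.6% of the GFP-only transcripts in all 5 AtGRP7-GFP libraries, and 7.40% of the latter in any GFP-only library. All 10 transcripts listed in at least 2 GFP-only libraries were among the 743. Of the 369 different GFP-only positions 211 (57.2%) were also listed in AtGRP7-GFP plants, 146 of them in all 5 libraries. The bases at GFP-only positions were U in 38.7% to 55.2% of cases, in comparison to 50.9% to 54.9% in AtGRP7-GFP libraries, a difference that did not pass the test (p = 0.151, exact permutation test, two-sided).
Shares of gene groups differed between the libraries. Photosystem subunits made up 12.8% to 16.5% of crosslinks in AtGRP7-GFP and 0 to 3.97% in GFP-only libraries, Calvin-Benson genes 11.8% to 14.8% and 0 to 9.03%, and neither pair overlapped (exact permutation adjusted p = 0.0119 for both). Antenna genes made up 9.69% to 11.5% and 0 to 9.86%, and ribosomal protein genes 4.48% to 6.90% and 0 to 4.71%, and in both a GFP-only library reached into the AtGRP7-GFP range (exact permutation adjusted p = 0.0159 for both). Shares add up to a fixed total, so that the tRNA share and these shares are not independent of each other.

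**Figure D5:**
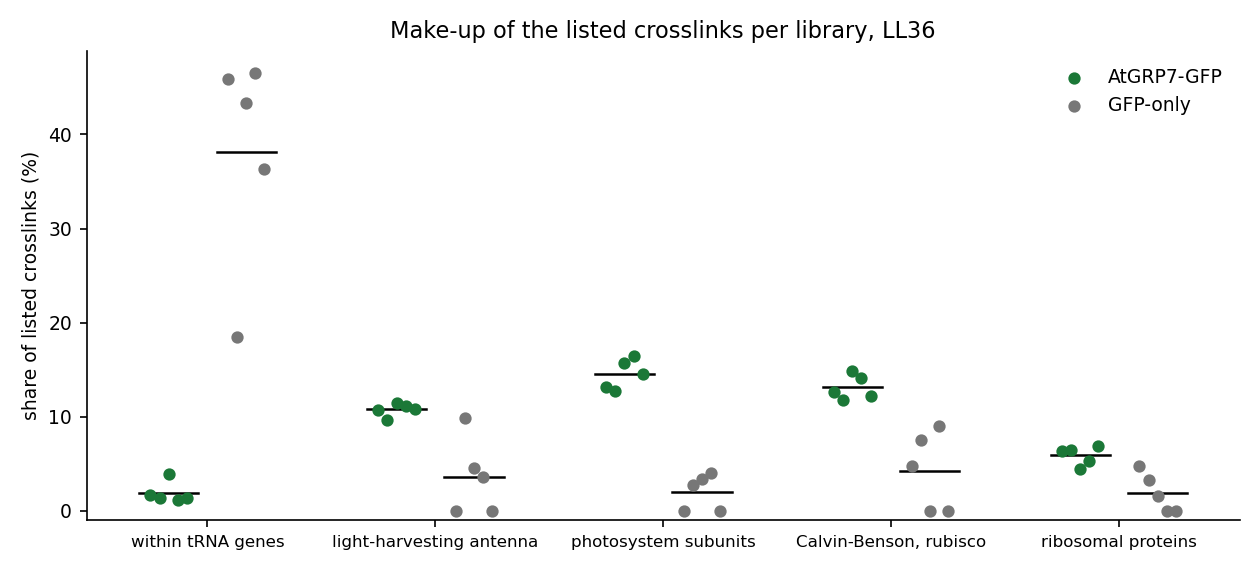
Share of listed crosslinks (%, y axis) within tRNA genes and in 4 gene groups (x axis) in AtGRP7-GFP (green) and GFP-only (grey) libraries. Points are libraries, lines are means, and the tRNA share is 1.11% to 3.89% in AtGRP7-GFP and 18.5% to 46.6% in GFP-only libraries, and the photosystem share 12.8% to 16.5% and 0 to 3.97%.

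Each transcript was then compared between the groups with edgeR's quasi-likelihood test, per uniquely mapped read, over 2795 transcripts with at least 10 crosslinks in the 10 libraries. A transcript that a library did not list entered this test as 0, although its true count there is unknown, and most transcripts passed the filter through their AtGRP7-GFP crosslinks. At an adjusted p below 0.05, 321 transcripts (11.5% of those tested) were higher in AtGRP7-GFP and 20 (0.716%) were higher in GFP-only plants. The number of calls depended on how the variance is estimated: the newer quasi-likelihood method of edgeR called 15 and 2, and DESeq2 160 and 6. Of the 321 transcripts, 320 were in all 5 AtGRP7-GFP libraries and 290 were not listed in any GFP-only library.
All 10 tested members of the Calvin-Benson pattern were called higher, 17 of 22 antenna and 24 of 31 photosystem members, and none lower. FBA1 and TIM, enzymes of the cycle outside this pattern, were not called. They differed by -0.51 and -2.12 on the log2 scale (edgeR adjusted p = 0.698 and 0.254). Of ribosomal protein genes 50 of 204 tested were called higher, and of RNA-binding proteins 7 of 42. The call followed level. Among the 688 transcripts in all 5 AtGRP7-GFP but no GFP-only libraries, none below 44.9 CPM was called, and all above 66.9 were. For members not listed in GFP-only plants, the group counts thus restate level and are no separate result.
RBCS1A, listed in 2 GFP-only libraries, differed by 3.55 ± 0.46 on the log2 scale (SE, edgeR adjusted p = 2.96e-08). PSBR, listed in 1 with 7 crosslinks, differed by 4.54 ± 0.48 (edgeR adjusted p = 1.85e-10). LHCA3, listed in 3, differed by 2.40 ± 0.37 (edgeR adjusted p = 1.66e-06). GFP-only libraries that did not list a transcript entered as 0, so that these differences and SEs rest in part on zeros. The AtGRP7 transcript differed by 2.43 ± 0.42 (edgeR adjusted p = 1.45e-05), a call that was lost with the newer method of edgeR (adjusted p = 0.152). Without GFP-only library 2 its difference was 3.67, and that of RBCS1A 4.41. With listed positions in place of crosslinks, the differences of AtGRP7, RBCS1A and LHCA3 turned to -0.28, -1.22 and -0.46. Without GFP-only library 4 PSBR was not listed in GFP-only plants. RBCS3B and PSBW, not listed in any GFP-only library, had edgeR adjusted p-values of 8.81e-15 and 3.87e-13, which rest on these zeros and follow the AtGRP7-GFP level, and no fold is given for them. At the AtGRP7-GFP level, 199 and 98.3 crosslinks would correspond to the summed reads of the 5 GFP-only libraries for these 2 transcripts. For a transcript of median level the corresponding number is 2.8, and it is below 3 for 387 of the 743. It is at least 10 for 144 of the 743, of which 110 were not listed in any GFP-only library. These numbers take no account of the listing threshold. Since GRP-3 was listed with 2 crosslinks, 3 is not a limit of detection. Where so few crosslinks correspond, a missing listing does not show that background was absent.
Of the 20 transcripts higher in GFP-only plants, 18 rested on 1 library with 3 to 32 crosslinks. The other 2 were AT1G64130 and DTX35, which differed by -1.97 ± 0.32 (edgeR adjusted p = 3.66e-06) and -2.04 ± 0.37 (adjusted p = 2.88e-05) on the log2 scale. The call of DTX35 was lost with the newer method of edgeR (adjusted p = 0.0988) and with robust estimates (adjusted p = 0.0747). AT4G03410, over tRNA-Gln, differed by -0.15 ± 0.31 and was not called (edgeR adjusted p = 0.698). The sign of these values depends on the scale: when reads before mapping replaced uniquely mapped reads, AT1G64130 and DTX35 differed by 0.32 and 0.41.
As a share of the listed crosslinks, 26 transcripts (0.93%) were higher in AtGRP7-GFP and 46 (1.65%) in GFP-only plants among the 2795. This balance turned over with other scalings, to 403 and 13 with TMM factors and 530 and 2 with DESeq2's poscounts factors, and the newer method of edgeR called 0 and 3, with 21 transcripts at an unadjusted p below 0.05. The 26 were all listed in all 5 AtGRP7-GFP libraries, and 11 were photosystem, 3 antenna and 3 Calvin-Benson members. LHCB5 (2.71 ± 0.54, edgeR adjusted p = 0.0124) and GRP-3 (2.98 ± 0.78, adjusted p = 0.0363) were those of the 26 that were listed in GFP-only plants as well, with 2 crosslinks each, in libraries 2 and 5. Both calls were lost with DESeq2 (adjusted p = 0.11 and 0.171), and with the newer method of edgeR (adjusted p = 0.966 for both). That of GRP-3 was lost in most fits that left out a library. That of LHCB5 was lost without GFP-only library 3 (edgeR adjusted p = 0.082) or 4 (0.0917) and without the 4 transcripts over tRNA genes (0.202). The share of RBCS1A did not pass this test (0.67 ± 0.48, edgeR adjusted p = 0.887), and neither did that of AtGRP7 (-0.39 ± 0.43, adjusted p = 0.887). Of the 46, 42 rested on 1 GFP-only library, FBA1 and TIM among them. The other 4 were the transcripts over tRNA genes: AT1G64130 (-4.88 ± 0.39, adjusted p = 1.81e-08), DTX35 (-4.90 ± 0.42, adjusted p = 3.41e-08), AT4G03410 (-3.03 ± 0.39, adjusted p = 2.27e-05) and AT3G12587 (-3.43 ± 0.77, edgeR adjusted p = 0.0124). Without GFP-only library 1 the value of AT3G12587 was -1.91 and did not pass (edgeR adjusted p = 0.472). With the newer method of edgeR the calls of AT4G03410 (adjusted p = 0.193) and AT3G12587 (adjusted p = 0.966) were lost. The share of AT4G03410 turned to 0.45 with TMM factors and to 2.28 with poscounts factors, higher in AtGRP7-GFP plants (DESeq2 adjusted p = 0.000548), and poscounts factors turned the other 3 as well. Without these 4 transcripts, 11 transcripts were higher in AtGRP7-GFP. Without GFP-only library 2, the deepest in listed crosslinks, 8 were higher in AtGRP7-GFP, 6 of them among the 26. In GFP-only plants 23 were higher in this fit, 17 of them among the 46. Without GFP-only library 3 or 4, 15 were higher in AtGRP7-GFP each, 14 of them among the 26.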

How the data were processed

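iCLIP reads were processed by the authors. According to the paper and the submitters' notes, reads were trimmed (cutadapt 1.9.1), PCR duplicates were removed by random barcodes, reads were mapped to TAIR10 (STAR 2.5.2a), and only uniquely mapped ones were kept. The deposited values are counts of unique reads whose start marks a crosslink, not normalized, and given only at positions past the authors' FDR of 0.05. Here, counts were summed per gene, without intron suffix and model number. A position listed for 2 transcripts (77 to 265 per AtGRP7-GFP library) counted for both. The uniquely mapped reads of the study's read statistics served as a scale only.

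Transcripts with at least 10 crosslinks over 10 libraries were tested with edgeR 4.0.16 (R 4.3.3, quasi-likelihood, Benjamini-Hochberg adjusted p below 0.05), with fixed library sizes: uniquely mapped reads, or listed crosslinks. SEs were derived from the F statistic. DESeq2 1.42.0 was an alternative. edgeR's default settings were taken after the call counts of 4 settings had been seen, and gave more calls per read (321) than robust estimates (307) or the newer quasi-likelihood (15). The pattern of the self-test was changed once: its first version, with changes on weak transcripts, recovered none. In the version used, changes were placed among the 400 transcripts with the highest expected control counts. There, per read, the test called 25 of 50 transcripts raised by 4 and 36 of 50 raised by 6 on the log2 scale, 50 of 50 lowered by 4, and 1 of 1957 unchanged ones. For shares it called 5 of 50 and 3 of 50 raised ones, 48 of 50 lowered by 4, and 0 of 1969 unchanged ones. The simulated counts took their dispersion from the AtGRP7-GFP libraries and had no listing threshold. These rates therefore need not hold for the GFP-only lists. Measures per library were compared with two-sided exact permutation tests (scipy 1.17.1). Intervals cover counting error only, and precision is limited by the 33 to 558 crosslinks of GFP-only libraries.

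Gene groups were found by patterns in symbols and descriptions of the TAIR10.1 annotation, corrected once after that annotation was seen, or by gene IDs. Of 4497 genes 4475 were in this annotation, and 99.1% of 264589 entries lay inside the named model. Genes named are AtGRP7, AtGRP8, the 20 strongest, the 5 strongest per kb, up to 3 per group, those in at least 3 GFP-only libraries or with the 5 highest GFP-only sums, and the 5 most and 5 least variable. Of transcripts called higher in GFP-only plants, the rule would name all. Here the remainder is given as counts. MSD1, ELF4 and PSBO1 belong to the groups. Members and lists were chosen with earlier results of these data known. The 11 other libraries were not used here.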

Additional observations from a re-analysis of the deposited data

Results flagged for a closer look

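Among 46 sets of 5 libraries examined, 4 held a library far from the other 4. The sets share libraries, and EMB3105 was chosen for its large spread. The 5% of sets that chance gives for independent sets therefore does not apply. AtGRP7-GFP library 4 listed 1.82 transcripts per 1000 uniquely mapped reads, in comparison to 1.35 to 1.48 in the others. AtGRP7-GFP library 3 had 3.89% of its crosslinks within tRNA genes, in comparison to 1.11% to 1.70% in the others. The same library was low for THI1, with 1011 CPM, where the others had 1634 to 1784, and for EMB3105, with 4.09 CPM, where the others had 93.6 to 118.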

How the results depend on the processing

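Transcripts higher in AtGRP7-GFP per read, 321, became 55 with positions in place of crosslinks, 160 with DESeq2, 818 scaled by barcoded reads before mapping, and 15 with the newer quasi-likelihood of edgeR. The 20 higher in GFP-only became 41 without a filter, 2 with at least 50 crosslinks, 3 with positions, 13 with TMM factors, 6 with DESeq2, 2 with barcoded reads and 2 with the newer method. For shares, the 26 higher in AtGRP7-GFP became 0 with positions, 403 with TMM factors, 3 with DESeq2, 530 with DESeq2's poscounts factors, 0 with the newer method and 11 without the transcripts over tRNA genes. The 46 higher in GFP-only became 109 without a filter, 7 with at least 50 crosslinks, 7 with positions, 13 with TMM factors, 19 with DESeq2, 2 with poscounts factors, 23 with robust estimates and 3 with the newer method. Robust estimates, the newer method and the omission of tRNA transcripts were added after the data were seen. At an unadjusted p below 0.05, shares gave 37 transcripts with positions and 21 with the newer method of edgeR. The causes were not tested.

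The labels do not pair the libraries, and deviations of libraries with the same number correlated between -0.03 and 0.16. With the replicate block, per read 41 transcripts were higher in AtGRP7-GFP and 0 in GFP-only, and for shares 0 and 1, in comparison to 277 and 44 transcripts at an unadjusted p below 0.05 by edgeR. The difference in transcripts per library was 6.13 with the replicate block, with an exact sign-flip p of 0.0625, the smallest that 5 pairs allow.

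With 1 library left out, calls per read ranged from 225 to 337 and from 14 to 24, calls for shares from 8 to 30 and from 23 to 57, and the difference in transcripts per library from 5.71 to 6.58. Transcripts listed in all remaining libraries numbered 748 to 978, in comparison to 1216 in at least 4 of 5. The concentration ranged from 30.5% to 33.0% and the median rank correlation from 0.85 to 0.88. The difference in transcripts per library turned to -0.98 per 1000 uniquely mapped reads and to -4.11 per 1000 listed crosslinks. With positions, the log2 differences turned to -0.28 for AtGRP7, -1.22 for RBCS1A and -0.46 for LHCA3 per read, and to -0.46 for GRP-3 in shares. With barcoded reads, AT1G64130 turned to 0.32 and DTX35 to 0.41. In shares, poscounts factors turned AT1G64130 to 0.46, AT4G03410 to 2.28, DTX35 to 0.36 and AT3G12587 to 2.20, and TMM factors turned AT4G03410 to 0.45.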
